A study of Schizosaccharomyces pombe with 8 samples.

Results

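The 9 mating type specific genes of fission yeast (Schizosaccharomyces pombe) described here were chosen by gene ID from a count table of 7000 IDs. Of these, 6 are genes of M cells (mfm1, mfm2, mfm3, mam1, mam2 and sxa2) and 3 are genes of P cells (map2, map3 and sxa1). They were measured by sequencing ribosomal RNA-depleted total RNA in 4 strains with 2 libraries each, from cultures in mid-log phase in the rich medium YES. All strains were h-, the M mating type, and all carried Rpb3-3HA::hphMX6, an epitope-tagged subunit of RNA polymerase II. WT kept the normal Rpb1. The mutants carried rpb1 S2A::kanMX6, rpb1 S7A::kanMX6 or rpb1 Y1F::kanMX6, in which serine 2, serine 7 or tyrosine 1 of the repeats of the Rpb1 C-terminal domain is replaced by alanine, alanine or phenylalanine. Only the mutants carry kanMX6 at rpb1, so effects of the marker and of the residue cannot be told apart, and every comparison with WT uses the same WT libraries. Nothing in the labels tells whether both libraries of a strain are separate cultures, so the p-values reflect no more than the spread between the libraries at hand, which may be technical.

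Mating in fission yeast joins a P cell and an M cell. M cells make M-factor, a farnesylated peptide that mfm1, mfm2 and mfm3 all encode and that the transporter Mam1 exports, and P cells sense it with the receptor Map3. P cells make P-factor from the precursor Map2, M cells sense it with the receptor Mam2, and the proteases Sxa2 of M cells and Sxa1 of P cells act on the partner's pheromone. Mating genes are known to be induced by the transcription factor Ste11 under nitrogen starvation, together with factors from the mating type locus, so cells growing in rich medium are not in the state in which mating takes place.

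Libraries held 13391705 to 23081870 counts. Spearman correlations across genes between replicates were 0.9976 to 0.9988, with a spread beyond sampling noise. rpb1 (SPBC28F2.12), the mutated gene, was lower than WT by −0.88 ± 0.0439 (SE) on the log2 scale in S2A, −0.88 ± 0.0439 in S7A and −0.65 ± 0.0437 in Y1F. Levels are CPM, counts divided by the TMM-scaled library size, given for replicate 1 and then replicate 2, or as mean ± SD with n = 2. Changes are log2 fold changes ± SE from edgeR's quasi-likelihood test, and a gene was called at a Benjamini-Hochberg adjusted p under 0.05 over all 6243 genes tested.

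The 8 members with enough counts to be tested were compared with WT in each mutant. In S2A 5 of the 8 were called, 2 higher and 3 lower, where 55.4% of all genes tested were called (28.8% higher and 26.6% lower). In S7A 5 of 8 were called, 1 higher and 4 lower, against 47.4% of all genes (23.1% higher and 24.3% lower). In Y1F 3 of 8 were called, 1 higher and 2 lower, against 35.0% (17.6% higher and 17.4% lower). With 8 genes, these shares do not set the members apart from all genes. The median of their changes stood at −0.10 for S2A, −0.44 for S7A and −0.08 for Y1F, beside 0.01, −0.01 and 0.01 for all genes. mfm2 and mam1 fell in every mutant and map3 in S2A and S7A, whereas sxa2 rose in S2A and Y1F and map2 rose in S2A and fell in S7A.

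**Figure D1:**
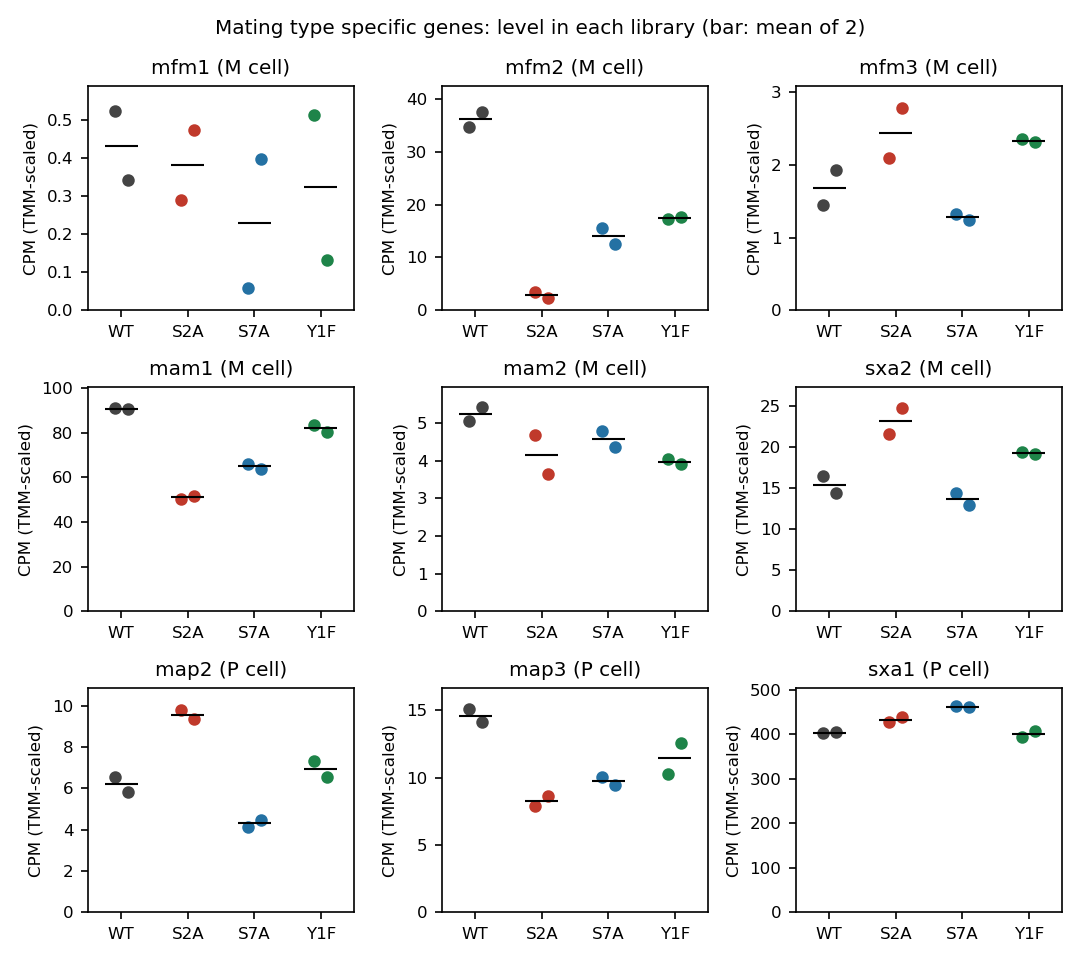
Level of each mating type gene in every library, in CPM (TMM-scaled, linear axes from 0); points are the 2 libraries of a strain and bars their mean. mfm2 lies at 34.6 and 37.5 CPM in WT and at 3.404 and 2.44 in S2A, and sxa1 stays between 394 and 463 CPM in all libraries.

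Among the M-factor genes, mfm2 (SPAC513.03) held most of the counts in WT. It measured 34.6 and 37.5 CPM in its WT libraries, 3.404 and 2.44 in those of S2A, 15.6 and 12.5 in those of S7A and 17.3 and 17.6 in those of Y1F. Both libraries of each mutant lay below both WT libraries, S2A lowest by a wide margin, and no strains overlapped. The fall was 12.04-fold in S2A (−3.59 ± 0.151, edgeR adjusted p = 3.40e-09), 2.59-fold in S7A (−1.37 ± 0.115, adjusted p = 2.03e-06) and, for Y1F, 2.06-fold (−1.05 ± 0.113, adjusted p = 2.47e-05). The differences between mutants were also called: S2A against S7A was −2.22 ± 0.167 (adjusted p = 2.69e-07) and S2A against Y1F −2.54 ± 0.163 (adjusted p = 1.07e-07). Y1F was slightly above S7A (0.33 ± 0.123, edgeR adjusted p = 0.0432). That last call was lost without S7A replicate 2 (0.16, adjusted p = 0.405), Y1F replicate 1 (adjusted p = 0.104) or Y1F replicate 2 (adjusted p = 0.163), with RLE scaling (adjusted p = 0.0503) and with DESeq2 (adjusted p = 0.124).

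mfm3 (SPBPJ4664.03), another M-factor gene, was low, with 1.44 and 1.92 CPM in its WT libraries, 2.09 and 2.77 in those of S2A, 1.32 and 1.24 in those of S7A and 2.35 and 2.31 in those of Y1F. The S2A and Y1F libraries lay above both WT libraries and the S7A libraries below them. None of these differences from WT was called. The change was 0.51 in S2A (95% interval −0.06 to 1.08, edgeR adjusted p = 0.116), −0.39 in S7A (−1.02 to 0.24, adjusted p = 0.288) and, for Y1F, 0.47 (−0.10 to 1.04, adjusted p = 0.184). Against S7A, S2A was higher by 0.90 ± 0.261 (adjusted p = 0.0111) and Y1F by 0.86 ± 0.261 (adjusted p = 0.0162), while S2A and Y1F differed by 0.04 (−0.47 to 0.56). The first call was lost without S2A replicate 2 (adjusted p = 0.0832) or S7A replicate 2 (0.0739) and with DESeq2 (0.0734). The second was lost without S7A replicate 1 (adjusted p = 0.0519), S7A replicate 2 (0.0965), Y1F replicate 1 (0.0528) or Y1F replicate 2 (0.0769) and with DESeq2 (0.109).

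mfm1 (SPAPB8E5.05), also an M-factor gene, had 8 and 5 counts in WT, 6 and 7 in S2A, 1 and 9 in S7A, and 7 and 3 in Y1F. The strains overlapped. mfm1 did not pass the filter on low counts and was not tested in the filtered fit; without the filter its change was −0.24 in S2A (edgeR adjusted p = 0.810), −0.76 in S7A (adjusted p = 0.460) and, for Y1F, −0.63 (adjusted p = 0.583), none called. Without the filter its differences between mutants were not called either (edgeR adjusted p = 0.606 to 0.911). At this depth 3 counts in a library correspond to 0.133 to 0.220 CPM, and S7A replicate 1 and Y1F replicate 2 were at or under 3 counts.

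Of the counts summed over mfm1, mfm2 and mfm3, mfm2 held 94.6% and 94.3% in the WT libraries, 91.9% and 88.4% in those of S7A, and 85.8% and 87.8% in those of Y1F. In S2A mfm2 held 58.8% and 42.9% of 119 and 84 counts, and mfm3 held 36.1% and 48.8%. The S2A libraries thus stood apart with the lowest mfm2 share. These shares carry no test, and the genes are related copies whose reads may have been split in counting.

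**Figure D2:**
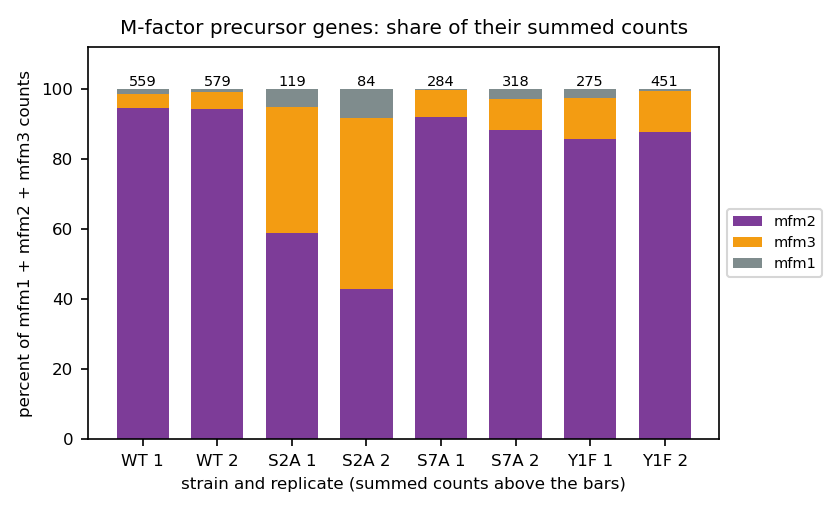
Share of each M-factor precursor gene in their summed counts, in percent, for every library; numbers above the bars are the summed counts. mfm2 makes up 85.8% or more in WT, S7A and Y1F and 58.8% and 42.9% in the S2A libraries.

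mam1 (SPBC25B2.02c), the ABC transporter that exports M-factor, measured 91.0 and 90.6 CPM in its WT libraries, 50.5 and 51.8 in those of S2A, 66.1 and 63.8 in those of S7A and 83.4 and 80.5 in those of Y1F. Replicates lay close together and the 4 strains did not overlap, in the order WT, Y1F, S7A, S2A. mam1 changed by −0.83 ± 0.0483 in S2A (edgeR adjusted p = 3.84e-08), −0.48 ± 0.0467 in S7A (adjusted p = 7.00e-06) and, for Y1F, −0.15 ± 0.0462 (adjusted p = 0.0245). S2A against S7A was −0.34 ± 0.0486 (adjusted p = 7.05e-05), S2A against Y1F −0.68 ± 0.0481 (adjusted p = 2.44e-07) and Y1F against S7A 0.33 ± 0.0465 (adjusted p = 9.00e-05). The small Y1F change against WT lost its call without WT replicate 1 (adjusted p = 0.0784), WT replicate 2 (0.0578) or Y1F replicate 2 (0.190) and with DESeq2 (0.144).

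mam2 (SPAC11H11.04), the P-factor receptor of M cells, had 5.04 and 5.43 CPM in its WT libraries, 4.67 and 3.65 in those of S2A, 4.79 and 4.35 in those of S7A and 4.04 and 3.90 in those of Y1F. All mutant libraries lay below both WT libraries, but none of the changes was called. They were −0.31 in S2A (95% interval −0.71 to 0.09, edgeR adjusted p = 0.166), −0.20 in S7A (−0.59 to 0.19, adjusted p = 0.380) and, for Y1F, −0.40 (−0.80 to −0.00, adjusted p = 0.111). Between mutants the differences were −0.11 for S2A against S7A (−0.50 to 0.28), 0.09 for S2A against Y1F (−0.31 to 0.49) and −0.20 for Y1F against S7A (−0.59 to 0.19), also not called.

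sxa2 (SPAC1296.03c), the carboxypeptidase of M cells that degrades P-factor, measured 16.4 and 14.4 CPM in its WT libraries, 21.6 and 24.7 in those of S2A, 14.4 and 12.9 in those of S7A and 19.4 and 19.2 in those of Y1F. The S2A and Y1F libraries lay above both WT libraries, and S7A overlapped WT. sxa2 rose by 0.58 ± 0.107 in S2A (edgeR adjusted p = 0.000596) and, in the case of Y1F, by 0.32 ± 0.109 (adjusted p = 0.0371), and in S7A the change was −0.18 (95% interval −0.42 to 0.07, adjusted p = 0.214). The Y1F call was lost without WT replicate 2 (adjusted p = 0.189), Y1F replicate 1 (0.111) or Y1F replicate 2 (0.138) and with DESeq2 (0.130). S2A was above S7A by 0.76 ± 0.105 (adjusted p = 5.87e-05) and Y1F above S7A by 0.50 ± 0.107 (adjusted p = 0.00207). The difference of 0.26 between S2A and Y1F was not called (adjusted p = 0.0521), and was called without WT replicate 1 (0.0357), WT replicate 2 (0.0402) or S2A replicate 1 (0.0308), with TMM on protein-coding genes (0.0323), without the filter (0.0495) and with only these strains fitted (0.0423).

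The P-cell genes were detected in these cultures too, although every strain is labelled h-. Bulk RNA does not show which cells held these transcripts or how much each cell held, and this was not tested. map2 (SPCC1795.06), the P-factor precursor gene, measured 6.55 and 5.84 CPM in its WT libraries, 9.77 and 9.34 in those of S2A, 4.13 and 4.49 in those of S7A and 7.35 and 6.57 in those of Y1F. Both S2A libraries lay above, and both S7A libraries below, all libraries of the other strains. map2 rose in S2A (0.63 ± 0.145, edgeR adjusted p = 0.00277) and fell in S7A (−0.52 ± 0.160, adjusted p = 0.0185), and in Y1F the change was 0.15 (95% interval −0.17 to 0.48, adjusted p = 0.459). The fall in S7A lost its call without WT replicate 1 (adjusted p = 0.112), S7A replicate 1 (0.0908) or S7A replicate 2 (0.0561) and with DESeq2 (0.0817). Set directly against each other, S2A was 2.21-fold above S7A (1.14 ± 0.146, adjusted p = 3.02e-05), and Y1F was above S7A by 0.67 ± 0.153 (adjusted p = 0.00313). S2A was above Y1F by 0.47 ± 0.138 (adjusted p = 0.0132), which was lost without S2A replicate 1 (0.0707) or Y1F replicate 2 (0.132) and with DESeq2 (0.0838).

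map3 (SPAC3F10.10c), the receptor for M-factor, measured 15.1 and 14.1 CPM in its WT libraries, 7.88 and 8.66 in those of S2A, 10.06 and 9.46 in those of S7A and 10.3 and 12.6 in those of Y1F. All mutant libraries lay below both WT libraries, with S2A lowest. The change was −0.83 ± 0.133 in S2A (edgeR adjusted p = 0.000209) and −0.58 ± 0.128 in S7A (adjusted p = 0.00258). In Y1F it was −0.33 (95% interval −0.61 to −0.06, adjusted p = 0.0586), and called without Y1F replicate 2 (−0.51, adjusted p = 0.0460). S2A against Y1F was −0.49 ± 0.134 (adjusted p = 0.00874), which was lost without S2A replicate 1 (0.0788) or Y1F replicate 2 (0.156). S2A against S7A (−0.24, 95% interval −0.54 to 0.05) and Y1F against S7A (0.25, −0.03 to 0.53) were not called.

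sxa1 (SPAC26A3.01), the aspartyl protease gene of P cells, measured 402 and 404 CPM in its WT libraries, 426 and 439 in those of S2A, 463 and 461 in those of S7A and 394 and 407 in those of Y1F. Both S7A libraries were highest and the strains lay close together. sxa1 was higher than WT in S7A (0.19 ± 0.0424, edgeR adjusted p = 0.00249), and Y1F against S7A was −0.21 ± 0.0423 (adjusted p = 0.00157). In S2A the change was 0.10 (95% interval 0.01 to 0.19, adjusted p = 0.0608), called only with TMM on protein-coding genes among the settings run (0.0286), and in Y1F it was −0.01 (−0.10 to 0.08). S2A against S7A was −0.09 (−0.19 to −0.00) and not called. S2A was above Y1F by 0.11 ± 0.0424 (adjusted p = 0.0442). This call was lost without S2A replicate 2 (adjusted p = 0.168), S7A replicate 1 (0.0757), S7A replicate 2 (0.0758), Y1F replicate 1 (0.252) or Y1F replicate 2 (0.0861), without the filter (0.0602), with only these strains fitted (0.0665) and with DESeq2 (0.0812).

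**Figure D3:**
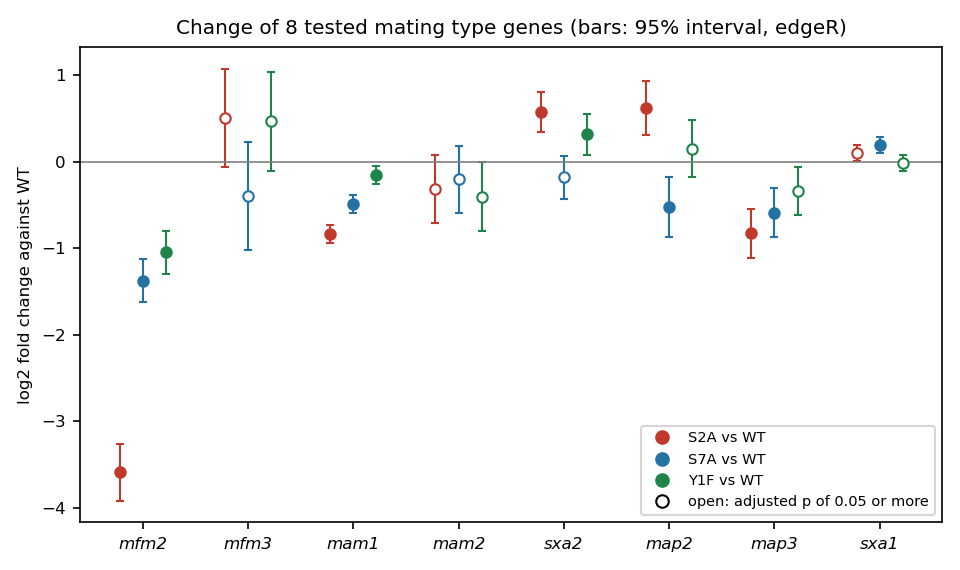
Log2 fold change against WT of the 8 tested mating type genes in the 3 mutants, with 95% intervals; filled points have an adjusted p under 0.05. mfm2 in S2A lies at −3.59, and map2 lies at 0.63 in S2A and −0.52 in S7A.

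Between the mutants, 5 of the 8 tested members were called for S2A against S7A (3 higher and 2 lower in S2A), where 53.1% of all genes were called (28.3% higher and 24.9% lower). For S2A against Y1F 5 were called (2 higher and 3 lower in S2A) beside 48.9% of all genes (25.1% higher and 23.7% lower). For Y1F against S7A 6 were called (5 higher and 1 lower in Y1F) beside 48.7% (25.7% higher and 23.0% lower). The genes above S7A in Y1F were mfm2, mfm3, mam1, sxa2 and map2, and sxa1 was below. The calls of mfm2 and mfm3 were lost with DESeq2, and 1 or both of them without any 1 library of S7A or Y1F. The count for S2A against Y1F was 3 with DESeq2. It was also lower without any 1 library of S2A, S7A or Y1F, and higher without either WT library. For Y1F against WT it was 1, mfm2, with DESeq2, and it was also lower without any 1 library of WT or Y1F. Shares of all genes called under these settings are not given here.

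Levels of different genes were set side by side per kb of annotated exon, from the ASM294v3 annotation. In WT the order was sxa1 (187 ± 0.663 CPM per kb), mfm2 (80.7 ± 4.52), mam1 (22.3 ± 0.0645), map2 (9.23 ± 0.749), map3 (8.31 ± 0.368), sxa2 (6.89 ± 0.660), mfm3 (6.23 ± 1.26), mam2 (4.24 ± 0.219) and mfm1 (0.995 ± 0.293). Of these neighbours only sxa2 and mfm3 overlapped between libraries. In S2A mfm2 was at rank 6, at 6.53 ± 1.53 CPM per kb, behind sxa1 (200.2 ± 4.07), map2 (14.2 ± 0.459), mam1 (12.5 ± 0.228), sxa2 (10.4 ± 0.985) and mfm3 (9.01 ± 1.79). In S7A and Y1F mfm2 held rank 2, at 31.5 ± 4.98 and 39.05 ± 0.374 CPM per kb. sxa1, a gene of P cells, had the highest level per kb of the members in all 4 strains, which are labelled h-.

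The mating type locus genes matched by name gave few counts, and any among the 203 IDs without a match were not analysed. The table held M genes at mat1 and their copies at the silent locus mat3, which share sequence, so their reads may be split or lost in counting. mat1-Mc, which encodes the M-specific regulator, had 1 count in WT replicate 2 and 0 in the other libraries, and mat3-Mc had 3 to 7 counts in every library. mat1-Mi had 0 to 4 counts and mat3-Mi had 0 or 1. Of these genes none was tested, and the listed P genes of the locus were not analysed here.

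Some members overlap genes of the other strand in the annotation. Libraries preserved strand, but how the counting treated strand was not stated, so a member and its antisense partner may share reads. This touches 4 members. mam1 is overlapped on the opposite strand over 81.4% of its span by SPNCRNA.5728 and over 1.18% by hbs1, and sxa2 over 63.9% by SPNCRNA.2305 and over 6.18% by cox4. On the same strand, sxa2 is also overlapped over 16.3% of its span by the noncoding RNA SPNCRNA.2306. The noncoding RNAs SPNCRNA.5728, SPNCRNA.2305 and SPNCRNA.2306 were not analysed here, so their part in the mam1 and sxa2 values was not tested. sxa2 counts were 9.05% to 17.4% of those of cox4 over the 8 libraries. mfm3 lies whole within SPNCRNA.1381, a noncoding RNA of the opposite strand that measured 22.6 and 24.9 CPM in its WT libraries, 31.4 and 30.0 in those of S2A, 17.6 and 19.9 in those of S7A and 27.7 and 27.6 in those of Y1F. SPNCRNA.1381 changed by 0.37 ± 0.0845 in S2A (edgeR adjusted p = 0.00247) and −0.33 ± 0.0886 in S7A (adjusted p = 0.00837), and was at 0.22 ± 0.0856 in Y1F (adjusted p = 0.0641). The S7A call was lost without WT replicate 2 (adjusted p = 0.0605) or S7A replicate 1 (0.0752), and Y1F was called without WT replicate 2 (0.0472). mfm3 counts were 6.25% to 9.26% of SPNCRNA.1381 counts over the 8 libraries, and its part in the mfm3 values was not tested.

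map3 overlaps his6, a histidine synthesis gene of the opposite strand, over 99.8% of its span. his6 was higher in S7A (0.26 ± 0.0521, edgeR adjusted p = 0.00156), and was at 0.09 ± 0.0529 in S2A (adjusted p = 0.160) and, for Y1F, −0.12 ± 0.0535 (adjusted p = 0.101). It was called in S2A without WT replicate 1 (adjusted p = 0.0225) and in Y1F without WT replicate 2 (0.0167). map3 counts were 15.2% and 15.7% of his6 counts in the WT libraries, 7.87% and 8.55% in those of S2A, 9.17% and 8.16% in those of S7A, and 11.7% and 14.6% in those of Y1F. The share was lower in every mutant library than in both WT libraries. SPNCRNA.1533, a noncoding RNA next to mam1 on the same strand, was not called (edgeR adjusted p = 0.914, 0.146 and 0.0893 in S2A, S7A and Y1F).

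**Figure D4:**
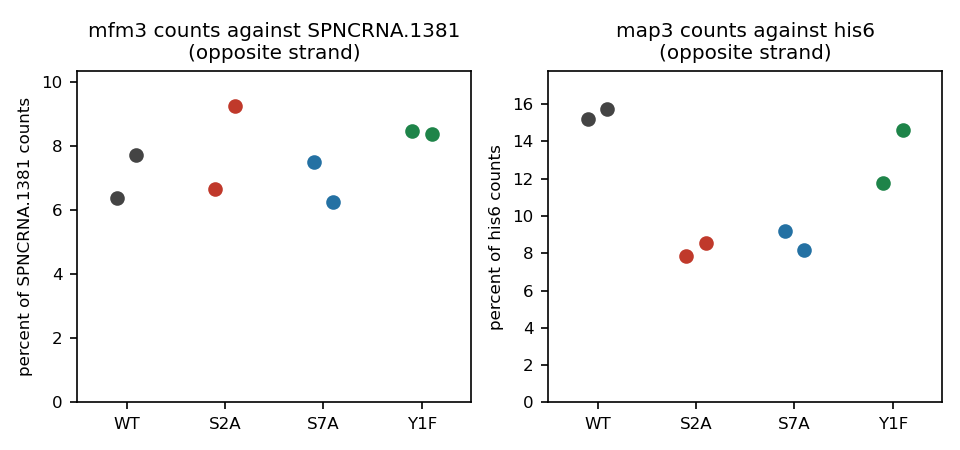
Counts of mfm3 and map3 as percent of the counts of the gene on the opposite strand, for each library (linear axes from 0). mfm3 stays between 6.25% and 9.26% of SPNCRNA.1381, while map3 is at 15.2% and 15.7% of his6 in WT and at 7.87% and 8.55% in S2A.

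The other genes of the mating pathway were taken from a list of 39 by role, of which 35 were matched to the table and 30 tested. In S2A 9 were higher, 12 lower and 9 not called, in S7A 5 higher, 14 lower and 11 not called, and in Y1F 6 higher, 9 lower and 15 not called. Their median change was −0.05, −0.20 and −0.04, beside 0.01, −0.01 and 0.01 for all genes, of which 55.4%, 47.4% and 35.0% were called. By direction, 28.8% of all genes were higher and 26.6% lower in S2A. In S7A 23.1% were higher and 24.3% lower, and in Y1F 17.6% and 17.4%. The counts by role that follow are to be read beside these shares, and no role was tested against them. Apart from ste11, map1, mam3, map4, ste4, byr1, rgs1 and spk1, a gene's change is given in the mutants in which it was among the largest of its role. Its changes in the mutants left out may be called too.

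Among 8 regulators tested, 3 were lower and 1 higher in S2A, and 4 lower and 1 higher in S7A and again in Y1F. ste11, the transcription factor that induces mating genes, fell from 77.1 ± 6.01 CPM in WT to 19.9 ± 3.48 in S2A (−1.94 ± 0.107, edgeR adjusted p = 2.44e-08). It changed by −0.38 ± 0.0932 in S7A and −0.33 ± 0.0937 in Y1F. These calls were lost without S7A replicate 2 in S7A (edgeR adjusted p = 0.0804) and without WT replicate 2 (0.0988) or Y1F replicate 1 (0.0806) in Y1F. map1, a regulator of P-cell genes, changed by −1.81 ± 0.249 in S2A, −1.33 ± 0.231 in S7A and −1.31 ± 0.234 in Y1F. mei2, an RNA-binding regulator of meiosis, changed by −3.06 ± 0.131, −2.04 ± 0.116 and −2.25 ± 0.120.

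Of 10 pheromone signalling genes, 6 were lower and 3 higher in S2A, 7 were lower in S7A, and 5 were lower and 1 higher in Y1F. ste4, an adaptor of the MAP kinase cascade, changed by −2.68 ± 0.130 in S2A, −1.33 ± 0.109 in S7A and −0.42 ± 0.102 in Y1F. byr1, the MAP kinase kinase, changed by −1.79 ± 0.0888 in S2A and −0.56 ± 0.0795 in S7A. rgs1, a negative regulator of the pheromone G protein, changed by −1.14 ± 0.0731 in S2A, −1.13 ± 0.0720 in S7A and −0.55 ± 0.0693 in Y1F. spk1, the MAP kinase, changed by −1.15 ± 0.159 in S2A, −0.97 ± 0.154 in S7A and −0.93 ± 0.155 in Y1F. All of these passed the test, while byr1 in Y1F (−0.14) was not called. The genes given values here all had negative changes, and values of those called higher, 3 in S2A and 1 in Y1F, are not given.

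Of 5 genes of pheromone maturation, 1 was higher and 2 lower in S2A, 2 higher and 2 lower in S7A, and 2 higher in Y1F. cpp1, the farnesyltransferase beta subunit, fell in S7A (−0.77 ± 0.0461) and rose in Y1F (0.40 ± 0.0441). cwp1, the alpha subunit, fell in S2A (−0.55 ± 0.0637), and mam4, the methyltransferase acting on M-factor, fell in S2A (−0.51 ± 0.103) and S7A (−0.58 ± 0.102). rce1, a CAAX protease gene, rose in Y1F (0.33 ± 0.0718).

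The agglutinin genes, whose products hold mating cells together, were higher in S2A, mam3 of M cells by 0.32 ± 0.0742 (edgeR adjusted p = 0.00298) and map4 of P cells by 0.94 ± 0.103 (adjusted p = 8.84e-06). map4 was also higher in S7A (0.29 ± 0.107, adjusted p = 0.0406), which was lost without WT replicate 1 (0.130), WT replicate 2 (0.0701) or S7A replicate 2 (0.326) and with DESeq2 (0.0999). The other changes were not called: mam3 0.01 in S7A and 0.09 in Y1F, and map4 0.17 in Y1F.

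Of 5 cell fusion genes, 2 were higher and 1 lower in S2A, 1 higher and 1 lower in S7A, and 2 higher in Y1F. prm1, a membrane protein of fusing cells, rose in S2A (0.73 ± 0.0607) and Y1F (0.45 ± 0.0617) and fell in S7A (−0.44 ± 0.0651). dni1 in S2A (−0.64 ± 0.224) lost its call without WT replicate 1 (edgeR adjusted p = 0.129) or S2A replicate 2 (0.148) and with DESeq2 (0.102). cfr1 in S7A (0.23 ± 0.0627) lost it without WT replicate 2 (edgeR adjusted p = 0.0765) or S7A replicate 2 (0.0664). dni2 in Y1F (1.01 ± 0.270) lost it without WT replicate 1 (edgeR adjusted p = 0.0755) or Y1F replicate 1 (0.0721) and with DESeq2 (0.0925).

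**Figure D5:**
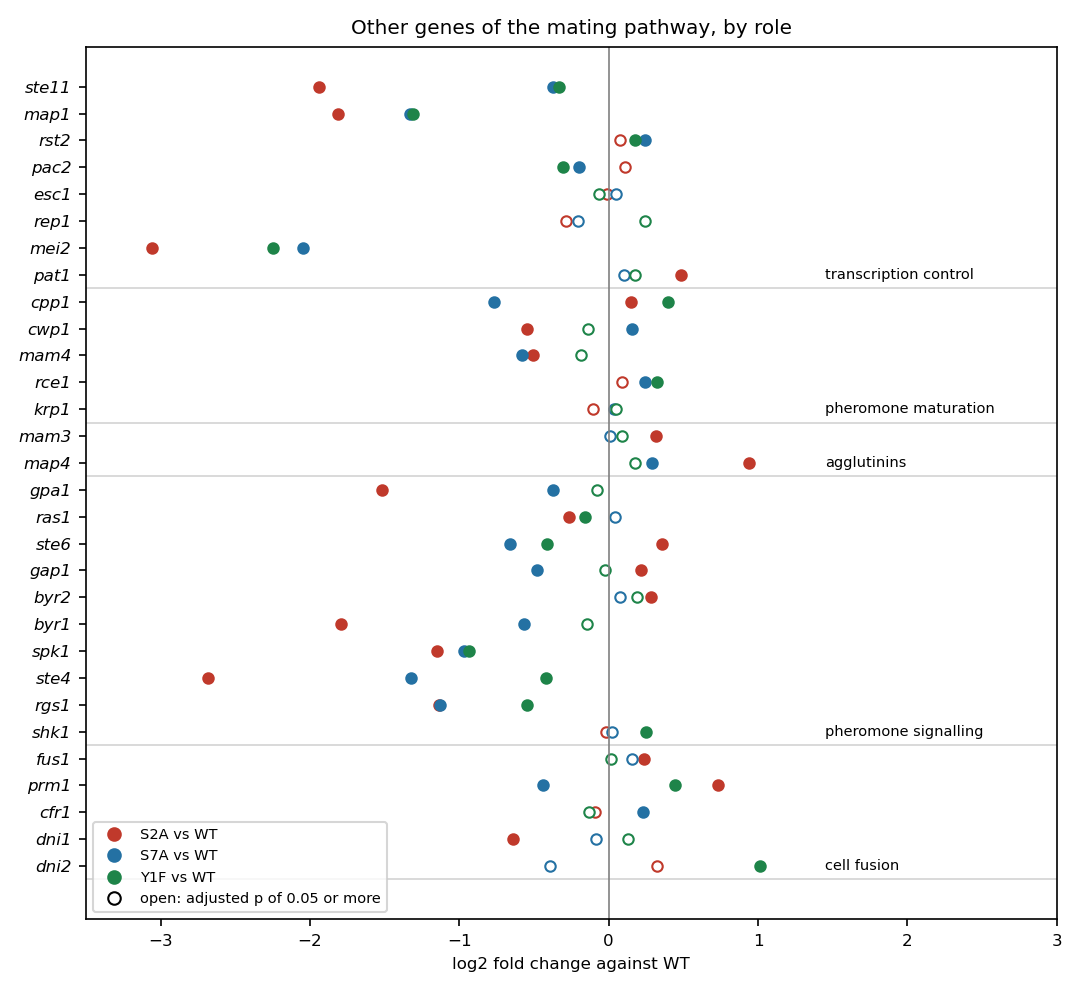
Log2 fold change against WT of the other tested genes of the mating pathway by role, 1 row per gene and 1 colour per mutant; filled points have an adjusted p under 0.05. ste4 and ste11 lie at −2.68 and −1.94 in S2A, and map4 and prm1 at 0.94 and 0.73.

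mfm2 was the single member with a called change of at least 2-fold against WT. Its nearest protein-coding genes of at least 1 CPM, by Euclidean distance over the log2 fold changes in S2A, S7A and Y1F, were ste4 (distance 1.104), SPCC576.19c, an uncharacterized protein gene (1.33), and atl1, an alkyltransferase-like protein gene (1.43). In that order of mutants mfm2 changed by −3.59, −1.37 and −1.05, and ste4 by less in S2A and Y1F (−2.68, −1.33 and −0.42). SPCC576.19c changed by −2.44 (−3.07 without S2A replicate 1), −0.86 and −0.60, and its Y1F call (edgeR adjusted p = 0.0338) was lost with DESeq2 (0.124) and without WT replicate 1 (0.0738), WT replicate 2 (0.0992), Y1F replicate 1 (0.136) or Y1F replicate 2 (0.0863). atl1 had −2.35, −1.01 and −0.42, the last not called (edgeR adjusted p = 0.0626) but called without S2A replicate 1 (0.0354) or S2A replicate 2 (0.0351) and with only these strains fitted (0.0413). mei2 had rank 4 (1.48), map1 rank 7 (1.80), ste11 rank 13 (2.05), byr1 rank 17 (2.17) and gpa1 rank 35 (2.49). These distances describe 3 comparisons that share the WT libraries and carry no test.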

How the data were processed

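Total RNA of 4 strains was sequenced as ribosomal RNA-depleted, stranded libraries, per the labels' protocols, 2 libraries a strain, assigned from the labels. The authors deposited whole-number counts per gene ID. HISAT2, featureCounts and build ASM294v2 appear in the submitters' processing notes, without versions or a strand setting. Names, exon lengths and overlaps came from the ASM294v3 annotation (6797 of 7000 IDs matched by locus tag), a different build, so no coordinates are printed.

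Low genes were removed with filterByExpr (minimum count 10, minimum total 15), leaving 6243. Counts were TMM-scaled and fitted in edgeR 4.0.16 (R 4.3.3) over all 8 libraries, 1 mean per strain, 4 residual degrees of freedom. SE is the size of the change over the root of F; intervals are 95%. The fit was also run on simulated data with far fewer changed genes than were called here, so that run vouches for no result above. Alternatives were DESeq2 1.42.0, RLE scaling, TMM on protein-coding genes, no filter, only the compared strains, a replicate block, and leaving out each library. Python 3.11.15, pandas 2.3.3 and matplotlib 3.10.9 made the tables and plots.

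Members and lists were chosen with earlier results of these data known. Named were all members, the mating type locus genes, ste11, map1, mam3, map4 and rpb1, up to 2 called genes per other role and mutant with the largest change and libraries apart from WT, noncoding RNAs overlapping members, and the 3 genes nearest to a member called at 2-fold or more. his6, SPNCRNA.1533, hbs1 and cox4, and the ranks of byr1 and gpa1, were added after values were seen. Library totals were 13391705 to 23081870, and floors of 3 counts cover counting error only.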

Additional observations from a re-analysis of the deposited data

How the results depend on the processing

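The changes of the 8 tested members over 6 comparisons were recomputed under 14 settings each, 672 values in all. Of these 620 kept direction and side of the threshold, 40 lost and 8 gained a call, and 4 changed sign in uncalled differences. Values that kept both include differences that stayed uncalled and fits without a library of a strain not compared, so their share is no measure of how firm the calls are. Leaving out 1 library, the values that changed sign ranged from −0.15 to 0.27 for mfm3 and from −0.10 to 0.24 for mam2 in S2A against Y1F, from −0.32 to 0.0258 for mam2 in S2A against S7A, and from −0.0362 to 0.0122 for sxa1 in Y1F. The uncalled mam3 ranged from −0.0218 to 0.0473 in S7A and from −0.0101 to 0.16 in Y1F, and SPNCRNA.1533 from −0.14 to 0.11 in S2A. Members called numbered 5 each time in S2A, 4 to 5 in S7A, 1 to 3 in Y1F and 2 to 6 for S2A against Y1F, and genes called in Y1F 1203 (without Y1F replicate 2) to 2184. DESeq2 called 1 member in Y1F and 3 for S2A against Y1F, and its share over all genes is not given here. mfm2 in S2A ranged from −3.88 to −3.41. Same-numbered libraries share only a number: their deviations correlated from −0.18 to 0.24 between strains, and with a replicate block 5, 5 and 3 members were called in S2A, S7A and Y1F, 4 for S2A against Y1F, where sxa1 was lost (edgeR adjusted p = 0.0547), and 5 for Y1F against S7A, where mfm2 was lost (edgeR adjusted p = 0.0502). The cause was not tested, and the share of all genes called with a replicate block is not given here. mfm1, mfm3 and mam2 had at most 98 counts in a library, and the part of depth in their values was not tested.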
